A study of Mus musculus with 6 samples.

Results

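The 10 genes described here encode extracellular proteoglycans and the link proteins that work with them: Acan, Vcan, Hapln1, Hapln3, Dcn, Bgn, Lum, Fmod, Prelp and Ogn. They were taken by gene symbol from a count table of 24348 genes, and all 10 were among the 19925 genes that had at least 10 counts in at least 3 libraries and were therefore tested. The set was chosen by their response to immune complexes in these same libraries, together with their family membership, so the contrast between the groups is given for them as a description and no test is read from it.

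The libraries hold RNA of fibroblasts sorted from the synovium of C57BL/6 mice with no introduced mutation, 3 from mice given immune complexes (IC) and 3 from mice given vehicle, which the treatment label calls control. The study's methods describe the complexes as ovalbumin bound by a rabbit polyclonal antibody, injected into the tail vein. The methods give one range of ages, that of young to mature adults, for the mice of all in vivo experiments and not for these libraries apart. Neither the time from injection to collection, the gate of the fibroblast sort, nor whether a library is 1 mouse or a pool is stated in the sources used here. The complexes were formed outside the animal from a foreign antigen, and p-values below measure only the spread between these 6 libraries, which may be technical.

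A proteoglycan is a core protein that carries long sulfated sugar chains. Aggrecan and versican, from Acan and Vcan, are lecticans, large chondroitin sulfate proteoglycans that bind the polysaccharide hyaluronan, and link proteins of the Hapln family lock that bond, so that in cartilage aggrecan forms the water-holding aggregates that resist compression. The small leucine-rich repeat proteoglycans (SLRPs), here Dcn, Bgn, Lum, Fmod, Prelp and Ogn, instead sit on collagen fibrils, set their diameter and bind growth factors, and they are typical products of tendon, ligament, capsule and synovial fibroblasts.

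The libraries held 40114331 to 56714304 counts in genes. Vehicle replicate 1 had the largest share, 0.964%, of its counts on Gm42418, a gene that overlaps ribosomal RNA repeats, against 0.375 to 0.553% in the other 5. Without that library all 10 log2 differences between the groups kept their sign, and Hapln1 moved the most, from -0.37 to -0.66.

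Of the 10 genes, Acan, Vcan and Prelp were higher in all 3 IC libraries than in all 3 vehicle libraries, Lum and Ogn were lower in all 3, and Hapln1, Hapln3, Dcn, Bgn and Fmod overlapped between the groups. Across all genes tested, 8.09% had IC values that lay wholly above the vehicle values and 7.67% wholly below. The same 5 genes passed an adjusted p of 0.05 in DESeq2, 3 higher and 2 lower, beside 2.10% of all genes tested (1.03% higher, 1.07% lower). The edgeR quasi-likelihood test passed 0 of the 10 beside 0.186% of all genes, although 6 of the 10 had an unadjusted edgeR p under 0.05, as 9.64% of all tested genes did, and 5 had one in DESeq2, as 9.80% of all did. Since the contrast helped to choose the genes, nothing is read from these counts. The median log2 fold change (IC over vehicle) of the 10 was -0.08, with 4 positive and 6 negative, and that of all tested genes was -0.0019.

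**Figure D1:**
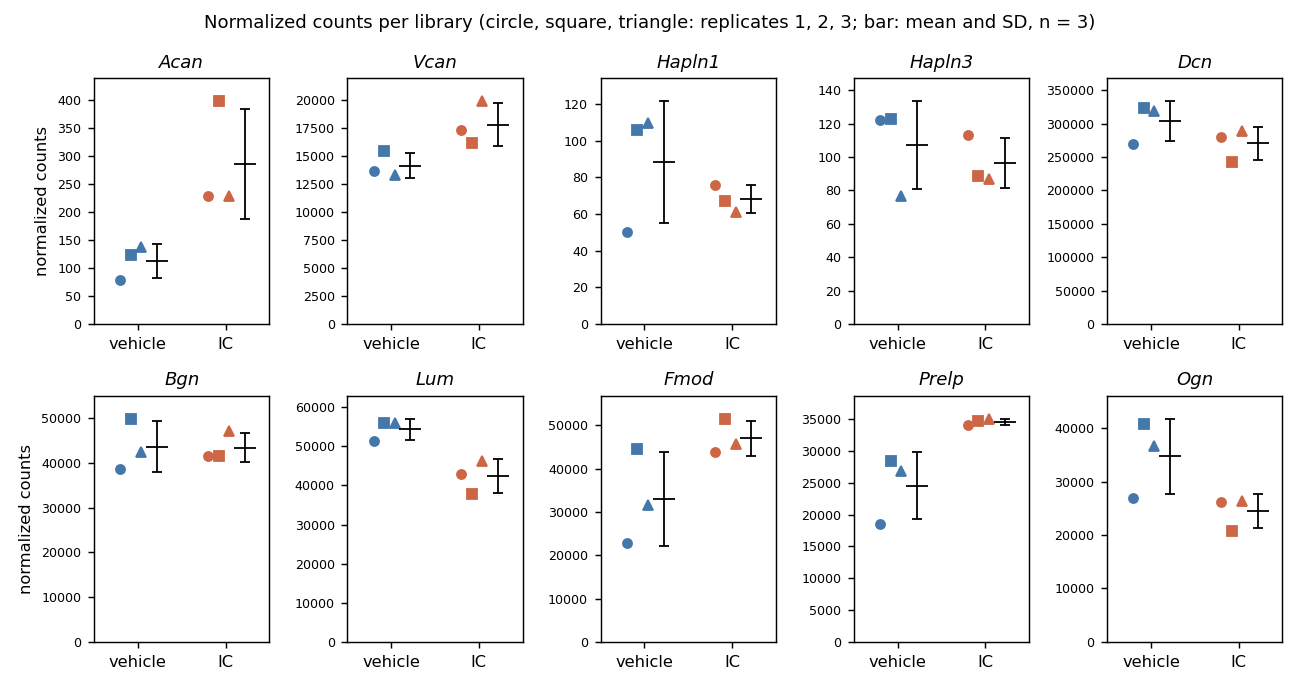
Counts normalized by DESeq2 size factors (y axis, from 0, a scale of its own for each gene) of the 10 genes in the 3 vehicle and 3 IC libraries, with the mean and SD of each group beside the points. Acan, Vcan and Prelp lie wholly higher in IC and Lum and Ogn wholly lower, while vehicle replicate 1 (circle) is the lowest vehicle library for Acan, Hapln1, Dcn, Bgn, Lum, Fmod, Prelp and Ogn.

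Acan, the aggrecan core protein gene, had the largest fold difference of the 10. Its normalized counts, which are read counts divided by each library's size factor, were 228.1, 397.9 and 228.5 in IC replicates 1, 2 and 3. In vehicle replicates 1, 2 and 3 they were 78.71, 122.8 and 137.4. IC replicates 1 and 3 were nearly equal, IC replicate 2 stood well above them, and the lowest IC value still exceeded the highest vehicle value. The means were 284.8 ± 97.94 and 113.0 ± 30.55 (SD, n = 3 each), a 2.53-fold higher level, or 1.34 ± 0.32 (SE) on the log2 scale with a 95% interval of 0.71 to 1.97. Leaving out IC replicate 2 lowered the difference to 1.02 and ended the call, and with vehicle replicate 1 left out it was 1.13.

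Acan lies on chromosome 7 on the plus strand at chr7:79053483-79115099 of GRCm38, the build also called mm10 to which the reads were aligned. Its neighbour Hapln3 ends 2 bases from it, tail to tail, at chr7:79115102-79131018 on the minus strand. The exons of neither gene overlap another annotated gene. To show how different the starts of these genes are in sequence, the 250 bases before the RefSeq start site (GRCm38.p6) are printed for Acan, Fmod, Prelp and Ogn. Among the other members, Fmod and Prelp had levels that followed Acan most closely over the 6 libraries. Ogn differed between the groups in the opposite direction.

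The windows are chr7:79052976-79053225 on the plus strand for Acan, chr1:134037004-134037253 on the plus strand for Fmod, chr1:133921402-133921651 on the minus strand for Prelp and chr13:49607765-49608014 on the plus strand for Ogn. Each is written 5′ to 3′ along its own gene, and capitals mark matches, on either strand, to 6 short motifs: a TATA box (TATAAA), a GC box (GGGCGG), AP-1 (TGANTCA), STAT (TTCNNNGAA), SOX (ACAANG) and the longer NF-kB motif.
Acan: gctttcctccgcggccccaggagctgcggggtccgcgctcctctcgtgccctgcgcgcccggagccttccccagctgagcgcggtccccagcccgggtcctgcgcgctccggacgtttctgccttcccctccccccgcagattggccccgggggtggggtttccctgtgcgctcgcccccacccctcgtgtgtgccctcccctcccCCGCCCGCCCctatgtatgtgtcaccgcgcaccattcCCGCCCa
Fmod: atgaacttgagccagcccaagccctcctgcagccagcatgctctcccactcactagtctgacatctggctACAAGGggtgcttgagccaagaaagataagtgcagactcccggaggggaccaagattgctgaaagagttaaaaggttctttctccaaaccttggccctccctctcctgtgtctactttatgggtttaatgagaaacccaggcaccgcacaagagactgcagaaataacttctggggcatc
Prelp: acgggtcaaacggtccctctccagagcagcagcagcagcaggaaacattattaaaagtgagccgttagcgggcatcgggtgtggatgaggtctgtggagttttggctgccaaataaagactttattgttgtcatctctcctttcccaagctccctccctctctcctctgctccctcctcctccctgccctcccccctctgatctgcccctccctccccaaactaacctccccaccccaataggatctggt
Ogn: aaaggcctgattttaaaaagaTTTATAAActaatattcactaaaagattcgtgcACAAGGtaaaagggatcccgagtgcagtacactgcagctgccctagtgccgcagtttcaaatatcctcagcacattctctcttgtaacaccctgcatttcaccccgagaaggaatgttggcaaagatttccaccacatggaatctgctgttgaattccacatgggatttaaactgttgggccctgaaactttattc
The Acan window is 74.4% G and C, more than 95.4% of the 32851 promoter windows in the RefSeq table, and holds 26 CpG dinucleotides. Its 3 GC box matches begin 44, 40 and 7 bases before the start, the first and second overlapping, and 32.7% of all windows hold at least 1 such match. The Fmod window (51.2% G and C) has 1 SOX match, 180 bases before the start, and the Ogn window (42.0%) has 1, 196 bases before it, where 36.3% of all windows have one. Ogn also has 2 overlapping matches to the TATA letters, 229 and 227 bases before the start, and 12.4% of all windows hold these letters. The Prelp window (55.6%) has no match to any of the 6.

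Windows were found for 8 of the 10 genes. AP-1, STAT and NF-kB letters, held by 6.75%, 7.02% and 0.356% of all windows, matched in none of the 8. The GC content of the other 4 windows was 62.4% for Vcan, 64.4% for Bgn, 54.4% for Hapln1 and 58.0% for Hapln3, all above the median of 52.4% over all windows. GC box letters matched in Acan, Vcan and Bgn, SOX letters in Fmod, Ogn and Hapln1, and TATA letters in Ogn and Hapln3. Of the 3 genes that were wholly higher in IC, Acan and Vcan held GC box letters and Prelp did not.

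Vcan, the versican gene, differed by less but was measured at a far higher level. Its normalized counts were 17310, 16210 and 19940 in IC and 13670, 15450 and 13350 in vehicle. Every IC library was above every vehicle library, with IC replicate 2 and vehicle replicate 2 closest to each other. The means of 17820 ± 1919 and 14160 ± 1128 (SD, n = 3 each) differed 1.26-fold, 0.33 ± 0.09 (SE) on the log2 scale. Over the 6 fits that left out 1 library the difference ranged from 0.24 to 0.40, and it was called only without IC replicate 2 and without vehicle replicate 2.

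The link protein genes were not higher in IC in step with Acan. Hapln1, the cartilage link protein, had normalized counts of 76.03, 67.18 and 60.94 in IC and 50.02, 105.8 and 109.4 in vehicle. Vehicle replicate 1 was the lowest of the 6 and the other two vehicle libraries the highest, so the IC values lay within the vehicle range. The log2 difference was -0.37 ± 0.43 with a 95% interval of -1.22 to 0.48, which is too wide to place Hapln1 above or below vehicle at these counts. Hapln3, a link protein expressed in many tissues, had 113.5, 88.89 and 86.92 in IC and 122.2, 122.8 and 76.6 in vehicle, again overlapping, with a difference of -0.16 ± 0.36. Within a library, the level of Hapln1 per kilobase of exon divided by that of Acan was 0.422, 0.214 and 0.338 in IC and 0.804, 1.09 and 1.01 in vehicle. Transcripts of this link protein were thus fewer for each Acan transcript in all 3 IC libraries. Acan was chosen with the contrast known, so nothing further is read from this ratio.

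Hapln1 and Vcan are themselves neighbours, at chr13:89539796-89611652 (plus strand) and chr13:89655312-89742509 (minus strand), 43.7 kb apart with no protein-coding gene between them. Both lectican genes of the set sit beside a link protein gene. Of the remaining lectican and link protein genes, Bcan (brevican, a brain lectican) had 5.51, 14.47 and 0 normalized counts in IC against 29.52, 34.95 and 27.97 in vehicle and was given no adjusted p by DESeq2 because of its low mean. Hapln4 had 51.79, 17.57 and 16.13 in IC and 62.32, 82.18 and 31.61 in vehicle. Hapln2 was below the count minimum, and Ncan was looked up but was not among the genes of the count table.

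Among the SLRPs, Dcn (decorin, which binds collagen I and transforming growth factor beta) was the most abundant. Its normalized counts were 280200, 242300 and 288700 in IC and 268700, 323600 and 318800 in vehicle. The ranges overlapped, since vehicle replicate 1 lay below IC replicates 1 and 3. The log2 difference was -0.17 ± 0.09 with a 95% interval of -0.35 to 0.01.

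Lum (lumican, which limits the thickness of collagen fibrils) was lower in IC. Its counts were 42950, 37680 and 46280 in IC and 51270, 55860 and 55990 in vehicle. No IC library reached the lowest vehicle library. The difference was -0.36 ± 0.09 on the log2 scale (vehicle 1.28-fold higher), and it ranged from -0.43 to -0.29 when single libraries were left out, with the call lost only without vehicle replicate 3. Dcn and Lum are neighbours, at chr10:97479609-97518143 and chr10:97565128-97572703, both on the plus strand and 47.0 kb apart.

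Bgn (biglycan, the closest relative of decorin) was the flattest of the 10. Its counts were 41490, 41560 and 47160 in IC and 38620, 49910 and 42370 in vehicle, with both the highest and the lowest value in vehicle. The log2 difference of -0.01 ± 0.10, with a 95% interval of -0.20 to 0.18, had a sign that flipped in 5 of 15 alternative analyses, scaling by total counts included (0.001). Bgn lies at chrX:73483602-73495933.

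Fmod and Prelp were both higher on average in IC. Fmod (fibromodulin, which guides collagen fibril assembly in tendon and cartilage) had 43840, 51520 and 45670 normalized counts in IC and 22820, 44470 and 31510 in vehicle. The groups met only where vehicle replicate 2 edged above IC replicate 1. The difference was 0.51 ± 0.28 with a 95% interval of -0.04 to 1.07, and it did not pass the test, and it was 0.31 without vehicle replicate 1, the lowest library. Without vehicle replicate 2 it was 0.79 and passed. With the values scaled by total counts the groups no longer overlapped.

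Prelp (a heparin-binding SLRP that anchors basement membranes to the underlying collagen) had 34050, 34660 and 35050 in IC and 18480, 28360 and 26860 in vehicle. The IC libraries were almost equal, with a coefficient of variation of 1.45%, the smallest among the 20 group values of the 10 genes, and all lay above vehicle. The difference was 0.49 ± 0.12 on the log2 scale, a 1.41-fold higher level. Without vehicle replicate 1, the lowest library, it was 0.32 and still called, whereas leaving out any 1 of the IC libraries ended the call with values of 0.48 to 0.50. Prelp at chr1:133910304-133921414 (minus strand) and Fmod at chr1:134037254-134048277 (plus strand) lie 115.8 kb apart with no protein-coding gene between them. An antisense gene, Gm15851, covers 9.68% of the exonic bases of Prelp and had only 5 to 17 raw counts per library, and the use of strand in the counting is not stated.

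Ogn (osteoglycin, also called mimecan) had the most negative difference of the 6 SLRPs in the set. Its normalized counts were 26190, 20770 and 26310 in IC and 26960, 40680 and 36560 in vehicle. Vehicle replicate 1 lay only just above the IC libraries, while the other two vehicle libraries were far above. The difference was -0.51 ± 0.13 (vehicle 1.42-fold higher), with -0.66 when vehicle replicate 1 was left out and -0.38 when vehicle replicate 2 was. It was called only without IC replicate 1 and without vehicle replicate 1.

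**Figure D2:**
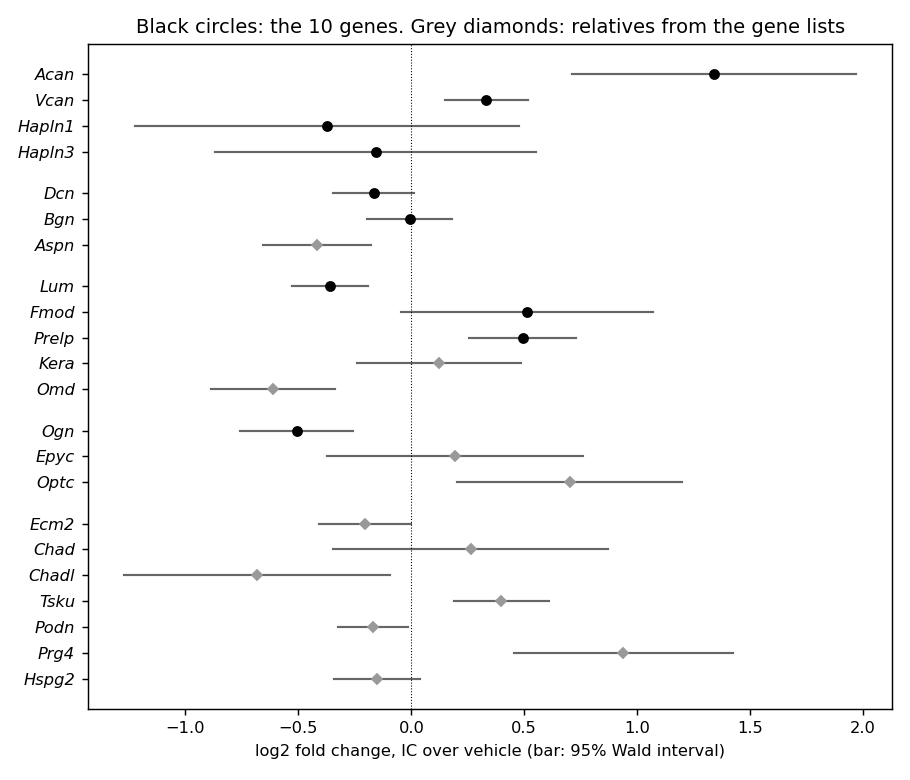
Log2 fold change of IC over vehicle (x axis) with its 95% Wald interval from DESeq2 for the 10 genes (black circles) and their relatives from the gene lists (grey diamonds), n = 3 libraries a group, in blocks by family. Acan stands at 1.34, Fmod at 0.51 and Prelp at 0.49, and Lum, Ogn, Omd and Aspn below 0, with Bgn at -0.01.

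Ratios of SLRPs within a library need no scaling between libraries, and several of them separated the groups. Because the contrast helped to choose these genes, such separation is a description and nothing is read from it. Prelp over Ogn, each per kilobase of exon, was 0.923, 1.19 and 0.946 in IC and 0.487, 0.495 and 0.521 in vehicle. The 3 vehicle ratios lay within a narrow band although the counts of both genes in those libraries varied (coefficients of variation of 21.7% for Prelp and 20.3% for Ogn). Fmod over Lum was 0.756, 1.01 and 0.731 in IC and 0.330, 0.590 and 0.417 in vehicle. Prelp over Fmod, in contrast, was 0.710, 0.615 and 0.702 in IC and 0.741, 0.583 and 0.780 in vehicle, so the groups overlapped in that ratio.

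Relative to the most abundant member, Lum over Dcn was 0.366, 0.371 and 0.382 in IC and 0.455, 0.412 and 0.419 in vehicle, lower in all 3 IC libraries. Prelp over Dcn was 0.196, 0.231 and 0.196 in IC and 0.111, 0.142 and 0.136 in vehicle, higher in all 3. The 10 genes together took a like share of all counts in both groups, 0.938 to 1.05% in IC and 0.948 to 1.13% in vehicle. Per kilobase, Prelp made up 8.71 to 9.77% of the summed level of the 10 in IC and 5.28 to 6.37% in vehicle. For Ogn the share was 8.24 to 9.58% in IC and 10.9 to 12.7% in vehicle. These ratios and shares are also of genes chosen with the contrast known, and nothing is read from them.

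**Figure D3:**
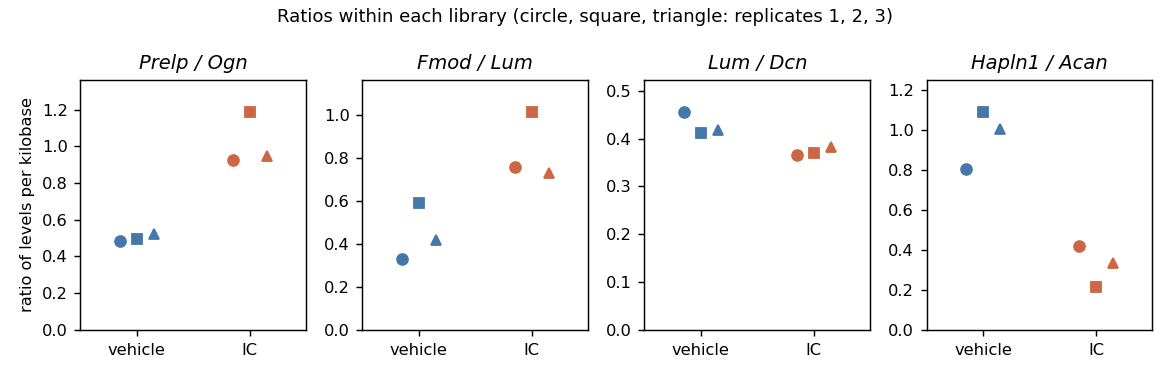
Ratio of the levels per kilobase of exon of 2 genes within each library (y axis, from 0), 1 point per library. Prelp over Ogn and Fmod over Lum are higher in every IC library, and Lum over Dcn and Hapln1 over Acan are lower in every IC library.

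In level per length, as CPM (counts scaled to the library total) per kilobase of exon averaged over the 6 libraries, the order was Dcn at 1022 (SD 93.1), Lum at 410.4 (59.4), Fmod at 251.1 (66.2), Ogn at 239.1 (56.5), Prelp at 170.0 (36.5), Bgn at 148.3 (11.8), Vcan at 22.99 (3.45), Hapln3 at 0.604 (0.122), Acan at 0.555 (0.324) and Hapln1 at 0.275 (0.081). Dcn was 13th of the 19608 tested genes with a length, whereas the level of Acan exceeded that of only 22% of them and that of Hapln1 of 13.0%. The mean level of Dcn was 1842 times that of Acan, and that of Vcan 41.5 times. These synovial fibroblast libraries thus held SLRP transcripts in abundance and aggrecan and its link protein transcripts at a low level in both groups.

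Neighbours in that order were separated, with ranges that did not meet over the 6 libraries, between Dcn and Lum, between Bgn and Vcan and between Vcan and Hapln3. All other neighbours overlapped over the 6 libraries. Lum was above Fmod in 5 of the 6, and within vehicle Lum (450.4 to 469.0) was wholly above Ogn (225.9 to 321.8), the next in that group. Among the SLRPs after Dcn the order was Lum, Ogn, Fmod, Bgn, Prelp in vehicle and Lum, Fmod, Prelp, Ogn, Bgn in IC. With the longest transcript as the length, 6 of the 10 kept their place and Bgn moved from 6th to 3rd, since its annotated exons are much longer in sum than any one transcript.

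**Figure D4:**
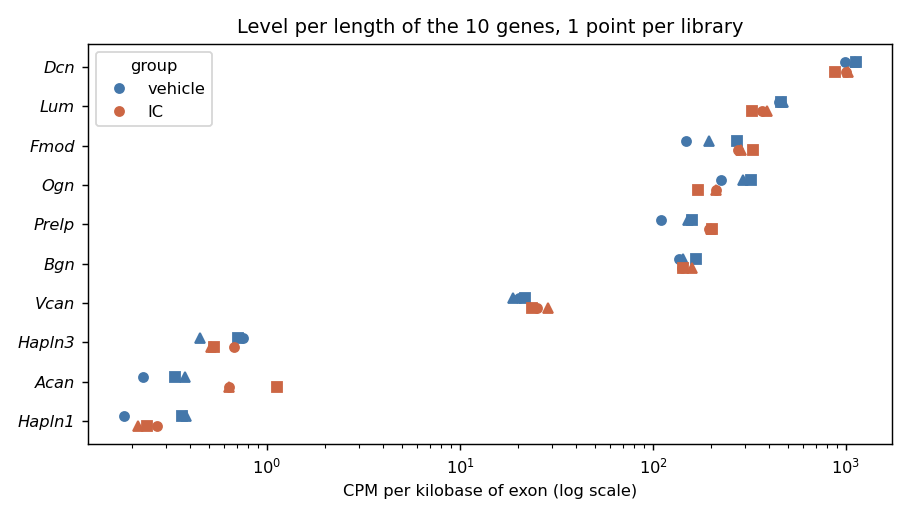
Level of the 10 genes in CPM per kilobase of exon (x axis, log scale), 1 point per library, ordered by the mean over 6 libraries. The 6 SLRPs lie from 109.9 upwards, Vcan between 18.9 and 28.5, and Hapln3, Acan and Hapln1 between 0.182 and 1.12.

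Over the 6 libraries, the 5 genes whose pattern was most like that of Acan, among 13434 genes averaging 100 normalized counts or more, were Ldlrad4 (Pearson r = 0.995 of log2 values), Serf2 (0.994), Rhbdf1 (0.989), Adrm1 (0.988) and Mcl1 (0.988), the last an anti-apoptotic member of the BCL2 family. All points share the same 6 libraries and size factors, and these r describe 6 points only. By Spearman's correlation 1 of these 5 (Serf2) ranked with the top 5, and with CPM values 1 (Ldlrad4) did. Spearman's correlation takes few values over 6 points and can tie many genes, so its top 5 is loosely defined. Ldlrad4, Rhbdf1, Adrm1 and Mcl1 were each at 0.94 by that measure. Within groups, as residuals from the group means, the closest genes were Pcdhb12 (0.997), Ttc30b (0.996), Cpox (0.994), Zfp763 (0.992) and Coasy (0.991), and no name stood in both lists.

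Among the other 9 members, Prelp (r = 0.89) and Fmod (0.84) were closest to Acan over all 6 libraries and Lum was the most opposed (-0.85). These r include the difference between the groups, which helped to choose the genes, so nothing is read from them. With group means removed, the values for Prelp, Fmod and Hapln1 were 0.65, 0.66 and 0.63, although over all 6 libraries Hapln1 was at -0.04. Lum was then at -0.33, and Hapln3 was the most opposed (-0.54). Vcan went from 0.63 over all 6 libraries to -0.37 within groups, and Ogn from -0.63 to 0.12. Between SLRPs, Dcn and Ogn varied together across libraries (0.96, and 0.97 within groups), and so did Fmod and Prelp (0.94, and 0.89 within groups). Dcn with Lum gave 0.86 and 0.91. Of the link proteins, Hapln1 followed Prelp within groups (0.94) but not over all 6 libraries (0.23).

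The other genes of proteoglycan biology were looked up in 10 lists, from further core proteins to chain synthesis, breakdown and control. Of 110 listed genes 108 were in the table and 105 were tested. DESeq2 called 11, 4 higher and 7 lower, which is 10.5% beside 2.10% of all genes, and edgeR called 1, Has1. In each tool 32 had an unadjusted p under 0.05 (beside 9.80% of all genes in DESeq2 and 9.64% in edgeR). These lists were written with earlier results of the same data known, so nothing is read from the shares. The median log2 difference was -0.04. Without vehicle replicate 1 DESeq2 called 17, without IC replicates 2 or 3 it called 6 each, and without vehicle replicate 3 it called 5. Of the 11 calls, those of Has1, Adamts15, Omd and Sox5 held in all 6 fits that left out 1 library.

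Of 11 tested SLRPs and relatives, 1 rose and 2 fell. Omd (osteomodulin, a keratan sulfate SLRP of bone) fell by 0.61 on the log2 scale (adjusted p = 0.0013, DESeq2), from 1327, 1635 and 1866 normalized counts in vehicle to 1061, 1018 and 1075 in IC. Aspn (asporin, which binds transforming growth factor beta) fell by 0.42 (adjusted p = 0.0313, DESeq2), from 11630, 15450 and 12370 to 10060, 8190 and 11300. Ogn, Omd, Aspn and Ecm2 stand in 1 row on chromosome 13, with gaps of 15.2, 14.9 and 11.7 kb, and Ecm2 had a difference of -0.20 (adjusted p = 0.44, DESeq2). All 4 genes of that row had negative differences. Aspn was called only without IC replicate 3 and without vehicle replicate 1 among the fits that left out 1 library.

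Tsku (tsukushi, a secreted SLRP that modulates growth factor signaling) rose by 0.40 (adjusted p = 0.0129, DESeq2), with 2429, 2414 and 2671 in IC and 1878, 2075 and 1744 in vehicle, and lost its call without IC replicate 3 and without vehicle replicate 3. Optc (opticin), 2.3 kb from Prelp on the same strand, had 394.5, 419.6 and 282.3 in IC and 245.2, 261.7 and 165.4 in vehicle, all IC values above vehicle, but did not pass (0.70, DESeq2 adjusted p = 0.133). Kera and Epyc, in the same row as Lum and Dcn, had differences of 0.12 and 0.20 that did not pass (DESeq2 adjusted p = 0.916 and 0.912), and each flipped sign without single libraries. Chad (chondroadherin of cartilage) was at 0.26 (DESeq2 adjusted p = 0.878).

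Of 23 tested proteoglycans of the basement membrane, cell surface and other sites, 1 rose and 2 fell. Prg4 (lubricin, the joint lubricant made by lining fibroblasts) rose by 0.94 (adjusted p = 0.0103, DESeq2), from 8263, 13860 and 10410 in vehicle to 17350, 22050 and 22900 in IC, and the call was lost (0.86 to 0.91) on removal of IC replicate 2, of IC replicate 3 and of vehicle replicate 3. Gpc3 (glypican 3) fell by 0.33 (adjusted p = 0.0271, DESeq2), a call that 4 of the 6 such fits lost. Ptprz1, a receptor phosphatase that carries chondroitin sulfate and is typical of glia, fell by 1.95 (adjusted p = 0.00221, DESeq2), from 282.9, 185.1 and 91.19 to 67.22, 52.71 and 25.99, and did not pass without vehicle replicate 1 (-1.52). Hspg2 (perlecan) had a difference of -0.15 (DESeq2 adjusted p = 0.628).

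Hyaluronan, the backbone to which aggrecan and versican bind, is made by the Has enzymes. Has1 rose by 0.59 ± 0.08 (SE) on the log2 scale (adjusted p = 6.93e-10 in DESeq2 and 0.0228 in edgeR). Its normalized counts were 38110, 38260 and 40150 in IC and 28350, 23570 and 25580 in vehicle, and the groups were far apart relative to their spread. Has2 was 5391, 5050 and 5588 in IC and 4612, 4665 and 4800 in vehicle, wholly higher but not past the test (0.19, DESeq2 adjusted p = 0.293). Of the 6 hyaluronan genes Has1 was the only one called.

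None of the 39 tested genes that build and sulfate the sugar chains passed: 0 of 15 for the linkage region and precursors, 0 of 16 for chondroitin and dermatan chains and 0 of 8 for keratan sulfate. Xylt1, which starts the chains, was at 0.26 (DESeq2 adjusted p = 0.221), and Csgalnact1 and Chsy1, which begin and extend chondroitin, at 0.23 and -0.15 (0.441 and 0.794). The sulfotransferases Chst11 and Chst3 were at -0.35 and -0.33 (DESeq2 adjusted p = 0.152 and 0.844). Of these 39, 9 had an unadjusted p under 0.05 in DESeq2 and 9 in edgeR, which also called 0. Of all genes tested 9.80% and 9.64% had one, and DESeq2 called 2.10% and edgeR 0.186%. No call among 39 genes lies near those called shares, so nothing is read from these counts. Of the 11 lysosomal enzymes of chain breakdown all had negative differences and 1 fell, Hexa (a subunit of hexosaminidase), by 0.34 (adjusted p = 0.0313, DESeq2), a call that 4 of the 6 fits without 1 library lost.

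Of the 10 tested proteases and inhibitors, 1 rose and 1 fell, and both are aggrecan-cleaving ADAMTS enzymes. Adamts4 rose by 0.30 (adjusted p = 0.0313, DESeq2), with 4238, 4124 and 4177 in IC and 3305, 3634 and 3266 in vehicle, and was called only without vehicle replicate 1 or 2 among the fits that left out 1 library. Adamts15 fell by 0.61 (adjusted p = 7.48e-05, DESeq2), from 9259, 12260 and 11860 in vehicle to 8489, 6492 and 6854 in IC. Adamts5, the major aggrecanase of mouse cartilage, was at 0.03 (DESeq2 adjusted p = 0.972), Adamts1 at 0.11 (0.659) and Adamts9 at -0.0077 (0.998), and Adamts5 and Adamts9 flipped sign in some alternatives. Timp3, the inhibitor of these enzymes, was at -0.18 (DESeq2 adjusted p = 0.565).

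Of the 3 cartilage transcription factors that switch Acan on, none was higher. Sox5 fell by 0.42 (adjusted p = 0.00301, DESeq2), from 2333, 2593 and 2683 normalized counts to 1954, 1841 and 1877. Sox9 was 2227, 1873 and 2092 in IC and 2342, 1828 and 2031 in vehicle, with overlapping groups and a difference of -0.0024 (DESeq2 adjusted p = 1) whose sign flipped in some alternatives. Sox6 was at -0.13 (DESeq2 adjusted p = 0.932) and also flipped.

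**Figure D5:**
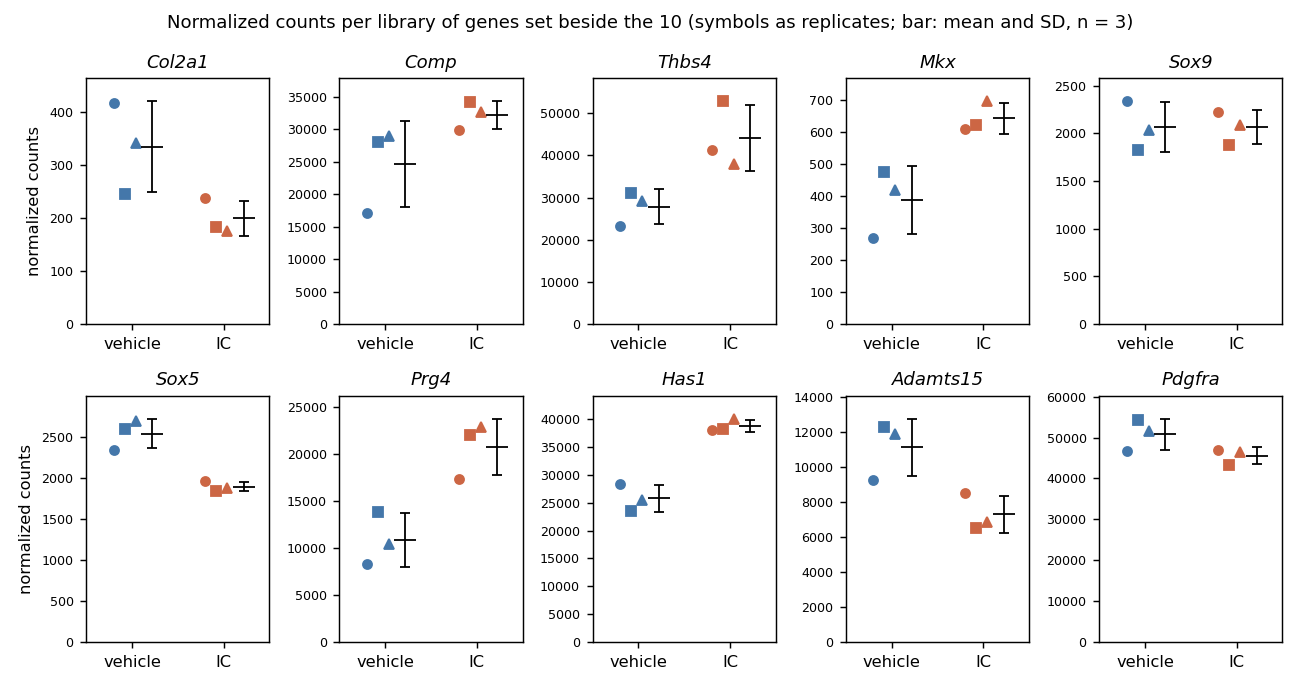
Counts normalized by DESeq2 size factors (y axis, from 0) of genes set beside the 10, with mean and SD, 3 libraries a group. Comp, Thbs4, Mkx, Prg4 and Has1 are wholly higher in IC and Col2a1, Sox5 and Adamts15 wholly lower, while Sox9 and Pdgfra overlap.

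Whole synovium is dissected next to cartilage, meniscus and ligament, so markers of other cells were set beside the members. Of 84 marker genes 75 were in the table and 68 were tested. DESeq2 called 12, 3 higher and 9 lower (17.6%), beside 2.10% of all genes tested (1.03% higher, 1.07% lower). The edgeR test called 0, beside 0.186% of all genes. At an unadjusted edgeR p under 0.05 were 28 markers, beside 9.64% of all genes tested. The lists were chosen with earlier results of these data known, so nothing is read from these shares. In bulk libraries, fewer cells of a type and less RNA per cell cannot be told apart. Fibroblast markers were high in both groups, with a summed 38430 to 39650 CPM in IC and 38990 to 47980 in vehicle, and Pdgfra, the receptor typical of fibroblasts, had 43200 to 47060 normalized counts in IC and 46650 to 54240 in vehicle. Of that list Col3a1 fell by 0.38 (adjusted p = 0.00679, DESeq2), a call lost in 4 of the 6 fits without 1 library.

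The chondrocyte list bears most directly on Acan. Of its 14 genes 11 were in the table and 9 were tested, and 0 passed in either tool (2 had an unadjusted p under 0.05 in DESeq2 and 3 in edgeR), 3 with positive and 6 with negative differences. Col2a1, the defining collagen of cartilage, had 238.0, 184.0 and 176.5 in IC and 418.2, 245.6 and 341.7 in vehicle, wholly lower in IC (-0.75, DESeq2 adjusted p = 0.107). Comp and Col9a3, a chain of collagen IX, were instead wholly higher, Col9a3 with 553.2, 504.4 and 612.9 in IC and 415.7, 444.0 and 448.7 in vehicle (0.35, DESeq2 adjusted p = 0.373). Col11a2 overlapped (0.18, DESeq2 adjusted p = 0.801). The level of Acan over that of Col2a1, per kilobase, was 1.19, 2.68 and 1.60 in IC and 0.233, 0.619 and 0.498 in vehicle. Col9a1, Matn3, Cytl1 and Ucma were at 0 in at least 1 library, and Cnmd had at most 33.62 normalized counts. The summed level of the list was 685.8 to 797.8 CPM in IC and 431.5 to 653.2 in vehicle, most of it Comp, a matrix protein shared with tendon (29850, 34150 and 32660 in IC and 17040, 27980 and 28910 in vehicle). Without Comp the sums overlapped, at 64.01 to 78.32 and 60.43 to 72.75, and most of what remained was Col11a2 (2072, 2840 and 2143 in IC and 1773, 2608 and 1858 in vehicle). The part of this list in the values of Acan was not tested.

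Of the 5 tested genes of the tendon and ligament list 2 rose in DESeq2 and 0 were called by edgeR (2 had an unadjusted p under 0.05 in each tool): Thbs4 (thrombospondin 4, by 0.66, adjusted p = 2.16e-05, DESeq2) and Mkx (mohawk, a tendon transcription factor, by 0.73, adjusted p = 0.0292, DESeq2). The Thbs4 call held in all 6 fits without 1 library, and that of Mkx in 1, without vehicle replicate 2. Thbs4 had 41220, 52950 and 38000 in IC and 23150, 31120 and 29280 in vehicle. Its highest library was IC replicate 2, as for Acan and Fmod, and its lowest was vehicle replicate 1. Tnmd, the tendon marker tenomodulin, did not pass the test (-0.05, DESeq2 adjusted p = 0.969) and flipped sign in some alternatives. The list summed to 873.6 to 1223 CPM in IC and 563.6 to 735.4 in vehicle, with no gene at 0, and most of it was Thbs4. Without Thbs4 the sums overlapped, at 88.7 to 106.8 in IC and 65.91 to 103.8 in vehicle. The part of the list in the values of Acan, Fmod and Prelp was not tested.

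Of the other lists, the muscle satellite, endothelial, mural and adipocyte sums were wholly lower in IC. The adipocyte sum rested on 3 genes with at most 29.18 normalized counts, and Adipoq was at 0 in IC replicate 3. The rest overlapped except that of the lining list, which was higher and was mostly Prg4. Muscle satellite cell markers summed to 32.67 to 60.1 CPM in IC and 69.97 to 109.4 in vehicle (2 of 4 called lower), endothelial markers to 75.5 to 125.2 and 129.9 to 176.9 (2 of 7), mural cell markers to 317.5 to 395.0 and 422.3 to 466.1 (1 of 6) and skeletal muscle markers to 12.99 to 26.46 and 21.81 to 51.51 (1 of 7, with Acta1 at 67.21 to 210.5 and 194.5 to 1029 normalized counts). Osteoblast markers summed to 14.53 to 36.04 and 33.48 to 48.75, adipocyte markers to 0.321 to 0.719 and 1.05 to 1.37, macrophage markers to 23.42 to 35.09 and 25.92 to 31.42, and Schwann cell markers to 25.28 to 117.3 and 33.35 to 88.32, with 0 called in these 4 lists and 0 of their 12 tested genes at an unadjusted p under 0.05 in DESeq2 or edgeR. Most of the osteoblast sum was Phex and most of the macrophage sum was Cd68, with means of 1595 and 1276 normalized counts. The other tested macrophage markers, Csf1r and Lyz2, had means of 52.18 and 62.42. Pecam1, an endothelial marker, did not pass (-0.41, DESeq2 adjusted p = 0.402). Most of the mural sum was Notch3, with a mean of 11210 normalized counts. Notch3, Myh11 and Des were wholly lower in IC, while Rgs5, Kcnj8 and Abcc9 overlapped between the groups (log2 differences of -0.71, 0.10 and -0.09). The lining fibroblast list summed to 470.9 to 592.2 CPM in IC and 303.1 to 425.7 in vehicle, and most of it was Prg4. The median log2 difference of its 5 genes was 0.001. Of these Prg4 rose, and Clic5 (by 0.68, adjusted p = 0.000825, DESeq2) and Tspan15 (by 0.90, adjusted p = 0.00835, DESeq2) fell. The sublining list summed to 3188 to 3697 CPM in IC and 3399 to 3991 in vehicle with 0 of 6 called in either tool (4 had an unadjusted p under 0.05 in DESeq2 and 3 in edgeR). The part of these markers in the members' values was not tested.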

How the data were processed

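The deposited values are raw read counts per gene: the authors trimmed reads with Trim Galore, aligned them to mm10 with HISAT2 and counted them with featureCounts. Versions, gene annotation and strand setting are not given in the sources used here, and the kit named in the labels (Illumina stranded total RNA with ribosomal depletion) differs from that in the methods, a SMARTer Pico kit. The 6 single-library files were identical to the columns of the combined table. No batch is labelled.

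The 10 genes and all gene lists were chosen with earlier results of these data known. Groups came from the sample labels. The 19925 of 24348 genes that reached 10 counts in 3 or more libraries were fitted with the DESeq2 1.42.0 Wald test on treatment, as the study's methods name this tool, in R 4.3.3, and p-values were Benjamini-Hochberg adjusted over all tested genes with a threshold of 0.05. The default filters of DESeq2 left 3870 tested genes with no adjusted p. edgeR 4.0.16, limma 3.58.1 (voom), sva 3.50.0 (1 surrogate variable), other scalings, no filters, a replicate block and leaving out each library were alternatives. DESeq2 and edgeR were also run on counts simulated with the dispersions that DESeq2 fitted here. Such counts follow the DESeq2 model, so they cannot decide between the tools where their calls differ.

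Intervals are 95% Wald intervals. Levels used the union of GENCODE exons (23865 symbols matched, 98.0%) as length. Likeness was Pearson's r of log2(normalized count + 1). Named genes were the 10, the 5 closest to Acan in each of 2 measures, called pathway genes, listed genes of known role, and chosen markers with every called chondrocyte, tendon and fibroblast marker. Optc, Ecm2, Col9a3, Col11a2, Hapln2, Hapln4 and the genes counted at 0 were named after their values were seen. Total counts per library were 40114331 to 56714304, and counting error weighs most on Hapln1, Hapln3 and Acan, which had the fewest counts of the 10.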

Additional observations from a re-analysis of the deposited data

How the results depend on the processing

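Over 15 alternatives the log2 differences of 9 of the 10 genes kept their sign, and Bgn did not. The number of the 10 called, 5 with DESeq2, was 0 with edgeR, with limma-voom (each with 6 at an unadjusted p under 0.05) and with edgeR and the replicate block (6), and 2 to 5 when single libraries were left out. The number with a positive difference stayed at 4 to 5. Groups did not overlap for 6 genes with CPM and for 5 with TMM scaling, alternatives chosen after seeing the data. Pathway calls (11) were 1 with edgeR, 2 with limma-voom, 7 with the replicate block, 1 with edgeR and the replicate block and 5 to 17 without single libraries. Marker calls (12) were 0 with edgeR, 2 with limma-voom, 2 with edgeR and the replicate block and 7 to 17 without single libraries. The cause of these shifts was not tested.

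Same-numbered libraries did not deviate together (r = -0.092, -0.164 and 0.025 over 13435 genes). With 3 libraries a group, these r cannot decide whether the numbers pair the samples, and no pairing is labelled. With the replicate block DESeq2 called 4 of the 10, Acan, Lum, Fmod and Prelp.

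Signs turned for values near 0. Bgn was at 0.001 with total-count scaling, 0.0906 with 1 surrogate variable and -0.0895 to 0.1016 without single libraries. Tnmd was at 0.0852 and Sox6 at 0.0221 with 1 surrogate variable, Adamts9 at 0.0002 with limma-voom, and Sox9 at 0.0017 with the replicate block and 0.0012 with edgeR and the replicate block. Without single libraries the ranges were -0.1985 to 0.0993 for Tnmd, -0.2531 to 0.0692 for Sox6, -0.1258 to 0.0949 for Adamts9, -0.0826 to 0.0967 for Sox9, -0.0987 to 0.3174 for Kera, -0.2521 to 0.3808 for Epyc and -0.0566 to 0.1103 for Adamts5. In all, of the values of single genes under alternatives, 638 kept sign and side of the threshold, 118 lost a call, 14 gained one and 25 turned. The order of levels kept 6 of 10 places with the longest transcript, and of the 5 genes most like Acan 1 remained with Spearman's correlation and 1 with CPM. Ties in Spearman's correlation can leave its top 5 loosely defined.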
